A study of Mus musculus with 6 samples.

Results

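The 10 apolipoprotein genes described here are Apoa1, Apoa2, Apoa4, Apoa5, Apob, Apoc1, Apoc2, Apoc3, Apoe and Apoh. They were taken by gene symbol from the 22851 genes of a liver expression matrix, and all 10 were found in it. Male C57BL/6J mice, an inbred strain, were fed a high-fat diet (HFD) and received either vehicle or ONX-0914, an inhibitor of the immunoproteasome subunit PSMB8. The drug was given subcutaneously at 10 mg/kg every other day over 6 weeks, and both groups carried the diet, so no lean control enters any comparison. There were 3 libraries per group, numbered 1, 2 and 4 with vehicle and 1, 3 and 4 with ONX-0914. The series' design text gives 2 biological replicates per group, and the animals behind single libraries are not named. The p-values therefore measure the spread between these libraries, which may be technical. The ages of the mice are not given in the sources used here.

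Apolipoproteins are the protein part of the particles that carry lipid in blood. Apolipoprotein B is the large scaffold on which the liver builds very low density lipoprotein, and apolipoproteins A-I and A-II are the main proteins of high density lipoprotein. The smaller C apolipoproteins and apolipoprotein E move between particles and set how fast lipases and receptors act on them. Liver makes most of these proteins, and several of their genes lie next to each other in clusters.

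As deposited, 1 of the 9 genes that could be tested was higher with ONX-0914, Apoa1, and 1 was lower, Apob. Apoa1 had a vehicle mean of 7603 ± 1482 FPKM (SD, n = 3, FPKM being fragments scaled by transcript length and library depth) and a treated mean of 11709 ± 935 (n = 3). Apob averaged 385 ± 7.03 FPKM (n = 3) and 211 ± 84.3 (n = 3). Over all 10743 tested genes 2.56% were higher and 43.5% were lower by the same rule, limma with Benjamini-Hochberg adjustment and a threshold of 0.05. The median log2 fold change of the 9 genes was -0.28, against -0.64 over all genes tested. A log2 fold change, below log2 change, is the difference of group means of log2(FPKM + 1), ONX-0914 minus vehicle. In bulk tissue, fewer cells of a type and less RNA per cell cannot be told apart.

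The sequences of the 2 genes that passed are shown here because they moved in opposite directions. The windows run from 250 bases before to 50 bases after the RefSeq start of each gene (RefSeq, GRCm38.p6, plus strand), and capitals mark any match to the motifs given next. That of Apoa1 covers chr9:46228380-46228679 and that of Apob covers chr12:7977427-7977726.
Apoa1: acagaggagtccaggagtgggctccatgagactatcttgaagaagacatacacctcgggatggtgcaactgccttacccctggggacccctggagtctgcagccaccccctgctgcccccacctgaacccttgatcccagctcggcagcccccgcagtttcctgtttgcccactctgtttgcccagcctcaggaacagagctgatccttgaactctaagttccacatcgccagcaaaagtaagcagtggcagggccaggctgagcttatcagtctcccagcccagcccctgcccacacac
Apob: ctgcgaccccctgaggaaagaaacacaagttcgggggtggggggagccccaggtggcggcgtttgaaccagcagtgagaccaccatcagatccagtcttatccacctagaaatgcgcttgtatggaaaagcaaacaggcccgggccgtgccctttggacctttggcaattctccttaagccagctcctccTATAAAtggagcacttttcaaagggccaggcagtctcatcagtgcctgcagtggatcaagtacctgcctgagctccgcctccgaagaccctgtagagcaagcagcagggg

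Windows of this kind were found for 8 of the 10 genes, and none for Apoc1 and Apoc3. The motifs given here were searched on both strands, and no match of one overlapped a match of another in these windows. The first motif was AAAGTCC, the core of the site bound by the liver regulator HNF4, which 4.21% of all 32851 such windows hold. It was in none of the 8, which says little at that share, and a search for exact letters misses sites written otherwise. The next was the TATA box, searched as TATAAA and held by 13.6% of all windows. It starts at -60 from the RefSeq start in the window of Apob, at -212 in that of Apoa2 and at -56 in that of Apoa5. The last was a nuclear receptor half-site, AGGTCA, held by 16.3% of all windows and found in those of Apoc2 and Apoh. No motif was found in the windows of Apoa1, Apoa4 and Apoe. These are matches of letters and say nothing of binding.

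The position of the genes was read from GENCODE M21 on GRCm38. Apoa1 (chr9:46228580-46230466), Apoc3 (chr9:46232933-46235636), Apoa4 (chr9:46240696-46243459) and Apoa5 (chr9:46268633-46271919) share 43.3 kb of chromosome 9, with Apoc3 on the minus strand. Apoc2 (chr7:19671579-19677941), Apoc1 (chr7:19689481-19692660) and Apoe (chr7:19696109-19699188) share 27.6 kb of chromosome 7, all on the minus strand. Apoa2 (chr1:171225054-171226379), Apoh (chr11:108343354-108414396) and Apob (chr12:7977648-8016835) stand alone. Their longest coding transcripts run from 518 bases for Apoa2 to 13934 bases in 29 exons for Apob.

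The treated libraries stood apart in ways that touch these genes. ONX-0914 3 lay between the groups on the main principal component, at 10.6, against -56.1 to -47.2 for vehicle and 67.8 and 74.0 for the other treated libraries. Longer transcripts were also relatively lower in treated libraries. The median log2 deviation from the vehicle mean of the upper length quartile of transcripts, minus that of the lower, was -0.95, -0.26 and -0.99 in ONX-0914 1, 3 and 4, and within 0.04 of 0 in each vehicle library. Changes of the apolipoprotein genes are therefore also given after median ratio scaling, which sets a library by its middle ratio to the geometric mean of all libraries, and after length correction, which subtracts from each library its smooth trend of deviation over transcript length. In those settings the median of all genes was -0.01 and 0.02. The summed FPKM ran from 993264 to 1074027 with vehicle and from 1041391 to 1247789 with ONX-0914, and read totals are unknown. The 9 hepatocyte markers, albumin (Alb) among them, were at 95500 to 99760 FPKM in sum with vehicle and at 72690 to 104500 with the drug, and Alb and Ttr made up most of these sums. Of the 9, Fgb rose (1.17, limma adjusted p = 0.00561), Cps1 (-1.66, adjusted p = 0.0119) and Ass1 (-0.57, adjusted p = 0.035) fell and 6 did not pass, where 2.56% of all genes were higher and 43.5% lower. Cps1 and Ass1 did not pass by median ratio or after length correction. By median ratio 3 of the 9 rose, Fgb, Serpinc1 and Ahsg, and none fell, where 13.8% of all genes were higher and 14.2% lower. After length correction 3 rose, Fgb, Serpinc1 and Trf, and none fell, where 9.43% of all genes were higher and 11.6% lower. The Ass1 call was also lost in 4 of 6 fits with 1 library left out, all but those without ONX-0914 1 or 3. Alb itself ran from 44524 to 47971 FPKM with vehicle and from 17654 to 36265 with ONX-0914, and its log2 change of -0.76 did not pass (limma adjusted p = 0.0669).

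**Figure D1:**
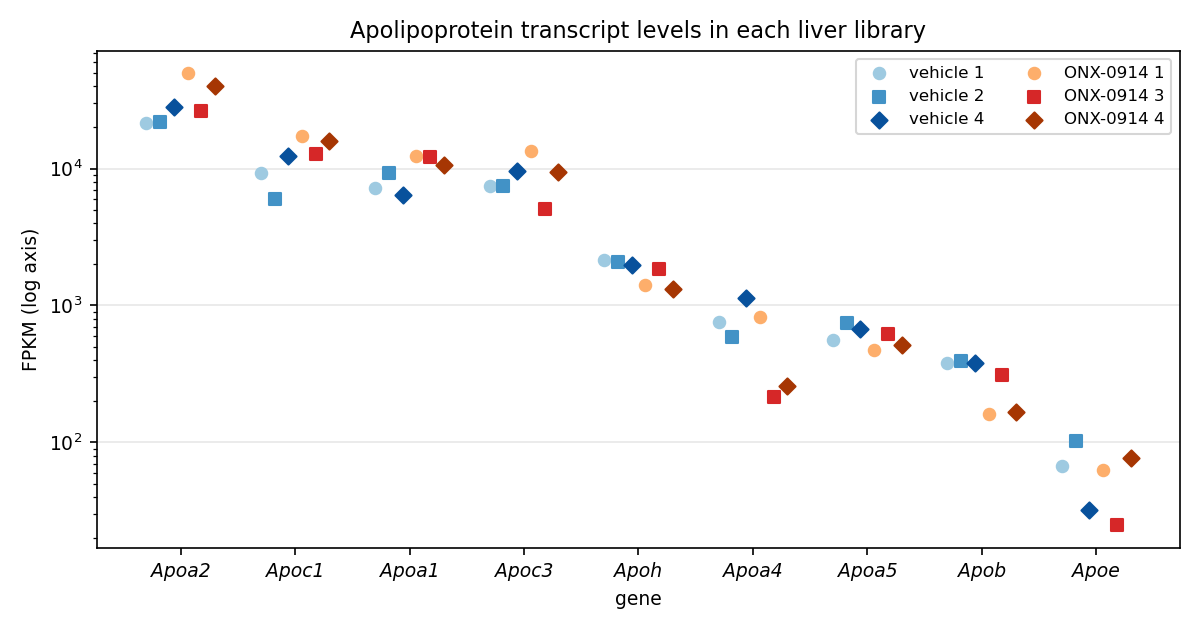
FPKM on a log axis of the 9 apolipoprotein genes with values above 0, by library, with vehicle in blue and ONX-0914 in orange to red. The 3 treated values of Apoa1 (10639 to 12369 FPKM) lie above its vehicle values (6366 to 9246), and those of Apob (160 to 309) lie below (379 to 393).

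By FPKM, a level per length, Apoa2, Apoc1, Apoc3 and Apoa1 averaged 23755, 9259, 8173 and 7603 in vehicle livers, and the last 3 of these did not differ beyond their spread. Apoh followed at 2070 FPKM, then Apoa4 at 830, Apoa5 at 661 and Apob at 385, with Apoa4 and Apoa5 overlapping. Apoe was at 67.3 and Apoc2 was listed at 0. With ONX-0914 the means of Apoa1 and Apoc3, and of Apoa5 and Apoa4, changed places in this order. Apoa2 ranked between 2 and 4 from the top of all 22851 genes in every library. Together the 10 genes took 4.96%, 4.81% and 5.64% of the summed FPKM in vehicle 1, 2 and 4, against 8.34%, 5.68% and 6.26% in ONX-0914 1, 3 and 4. The lowest treated share thus lay just above the highest vehicle share, and Apoa2 alone made up 4.32% in ONX-0914 1. At the 518 bases of Apoa2 the length trend stood at 0.65, -0.09 and 0.53 in ONX-0914 1, 3 and 4. The part of this trend in the shares was not tested.

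Apoa1 encodes the main protein of high density lipoprotein, the particle that takes cholesterol from cells. Its levels were 7199, 9246 and 6366 FPKM in vehicle 1, 2 and 4, against 12369, 12120 and 10639 in ONX-0914 1, 3 and 4. All 3 treated libraries were above all vehicle libraries, also ONX-0914 3. The log2 change was 0.64 (SE 0.23, limma adjusted p = 0.045), a 1.56-fold rise. It was 1.44 by median ratio (adjusted p = 0.0176) and 0.69 after length correction (adjusted p = 0.0422). The call was narrow: with 1 library left out it was lost in 5 of 6 cases (adjusted p from 0.0333 to 0.186), passing only without ONX-0914 3, while the log2 change stayed between 0.52 and 0.79. Apoa1 was higher in all 19 alternative settings and passed in 9, not with equal sums of FPKM (0.48, adjusted p = 0.112) or quantile normalized (0.14, adjusted p = 0.657).

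Apoa2, which encodes the other abundant protein of high density lipoprotein, was at 21461, 21804 and 28000 FPKM in vehicle 1, 2 and 4. In ONX-0914 1, 3 and 4 it was at 49574, 26302 and 39817 FPKM. ONX-0914 1 and 4 stood above all vehicle libraries and ONX-0914 3 lay among them. Its log2 change of 0.66 (SE 0.29, limma adjusted p = 0.0884, 95% interval 0.01 to 1.32) did not pass. Among fits with 1 library left out, Apoa2 passed only without ONX-0914 3, at 0.91 (adjusted p = 0.00627). In the other fits of this kind adjusted p ran up to 0.264. By median ratio Apoa2 passed at 1.46 (adjusted p = 0.0431). After length correction it was 0.30 (adjusted p = 0.186). The transcript is 518 bases long, and the length trend at that length stood at 0.65, -0.09 and 0.53 in ONX-0914 1, 3 and 4, beside deviations of 1.07, 0.16 and 0.76 for Apoa2.

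Apoa4 encodes a protein of chylomicrons and high density lipoprotein that intestine makes in bulk and fatty liver can induce. Its levels were 763, 592 and 1135 FPKM in vehicle 1, 2 and 4, against 820, 216 and 256 in ONX-0914 1, 3 and 4. ONX-0914 1 kept a vehicle-like value, and the other treated libraries were below every vehicle library. Apoa4 had a log2 change of -1.16 (SE 0.46, limma adjusted p = 0.0651, 95% interval -2.21 to -0.12), the lowest of the 9 genes. Apoa4 passed as lower in 1 of 6 fits with 1 library left out, that without ONX-0914 1, at -1.76 (adjusted p = 0.00669). The other 5 fits did not pass (adjusted p up to 0.213). ONX-0914 3 alone against the vehicle libraries gave -1.89 (adjusted p = 0.00713), with its spread taken from the vehicle group. Over the 3 treated libraries it was -0.36 by median ratio (adjusted p = 0.645) and -0.72 after length correction (adjusted p = 0.324). Of 7 enterocyte markers 5, including Sis and Cdx2, were at 0 in every library, and their sum, nearly all Fabp2, was 127 to 158 FPKM with vehicle and 52.6 to 85.8 with ONX-0914. Their part in the Apoa4 values was not tested. Reads of Apoa4 and antisense genes that overlap 34.8% and 34.9% of its exonic bases cannot be told apart if strand was not used.

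Apoa5 encodes a low-abundance plasma protein that promotes the breakdown of triglyceride-rich particles. It was at 564, 748 and 672 FPKM in vehicle 1, 2 and 4, against 472, 616 and 514 in ONX-0914 1, 3 and 4. The groups overlapped, and the log2 change of -0.31 (limma adjusted p = 0.226, 95% interval -0.76 to 0.14) did not pass. Its sign turned to 0.49 by median ratio and to 0.34 after length correction, and neither passed (adjusted p = 0.141 and 0.204). An antisense gene overlaps 20.8% of the exonic bases of Apoa5.

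Of the 4 neighbours in the chromosome 9 cluster, only Apoa1 passed, as higher, in the 3 settings shown. Apoc3, Apoa4 and Apoa5 passed in none of them, and Apoa4 had the lowest log2 change. A call for Apoa1 and none for its neighbours does not test a difference between them. Ratios between genes of the same library do not depend on how libraries are scaled, and 8 pairs were compared, while 2 more pairs with Apoc2 gave no ratio because it was listed at 0. The Apoa5 to Apoa1 ratio was 0.0784, 0.0809 and 0.106 in vehicle 1, 2 and 4, against 0.0382, 0.0509 and 0.0483 in ONX-0914 1, 3 and 4. The treated ratios all lay below the vehicle ratios, and their geometric mean was 1.93 times lower (exact permutation test, two-sided, p = 0.1, adjusted p = 0.4). The smallest p that 3 against 3 libraries allow is 0.1. The Apoa4 to Apoa1 ratio was 3.49 times lower in geometric mean, and ONX-0914 1 (0.0663) overlapped with vehicle 2 (0.064). The Apoa2 to Apoa1 ratio was 1.02 times its vehicle mean. In ONX-0914 1, 3 and 4 the length trend at Apoa5 (2515 bases) stood at -0.76, -0.40 and -0.77. At Apoa4 (1815 bases) it stood at -0.49, -0.33 and -0.52, and at Apoa1 (1035 bases) at 0.06, -0.21 and -0.004. The part of the length trend in these ratios was not tested.

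**Figure D2:**
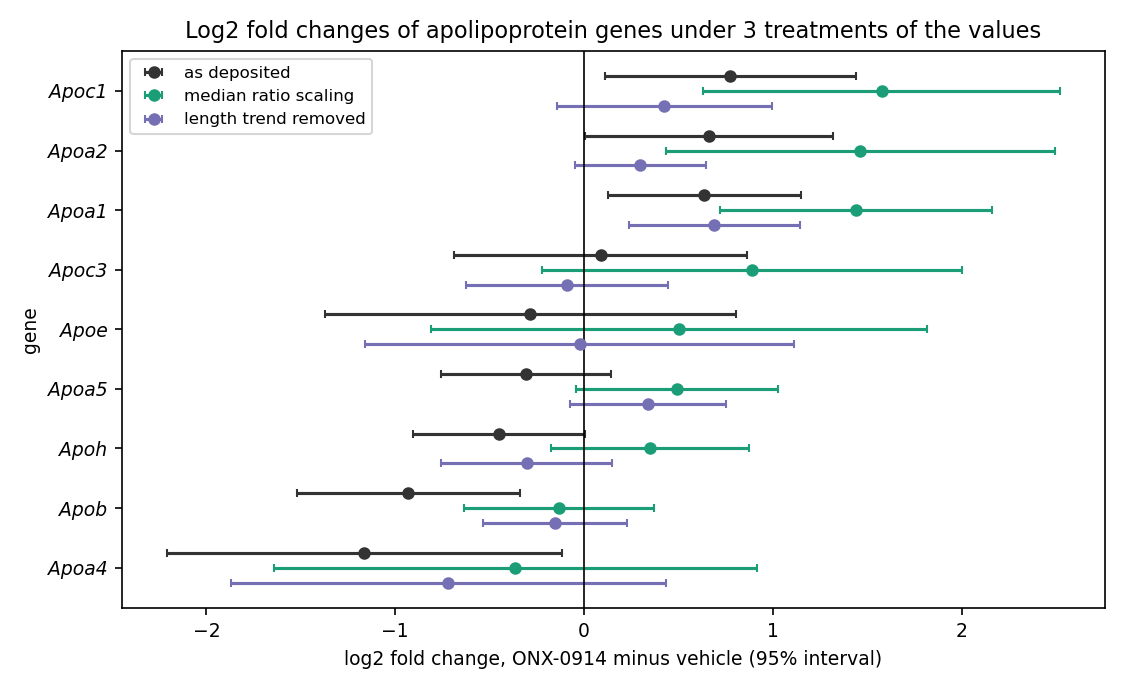
Log2 change (ONX-0914 minus vehicle) with its 95% interval for the 9 tested apolipoprotein genes, as deposited, after median ratio scaling and after length correction (length trend removed). Apoa1 lies above 0 in all 3 settings, while Apob moves from -0.93 as deposited to -0.13 and -0.15.

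Apob encodes the structural protein of very low and low density lipoprotein, of which each particle carries a single copy. It was at 379, 393 and 383 FPKM in vehicle 1, 2 and 4, against 160, 309 and 165 in ONX-0914 1, 3 and 4. The vehicle values were close together, all treated values were lower, and ONX-0914 3 was the nearest to vehicle. The log2 change was -0.93 (SE 0.26, limma adjusted p = 0.0191), a level 1.91 times lower. This call was lost by median ratio (-0.13, adjusted p = 0.673) and after length correction (-0.15, adjusted p = 0.527). With 1 library left out it was lost in 5 of 6 cases (adjusted p from 0.00025 to 0.074), the exception being the fit without ONX-0914 3 (-1.24). At 13934 bases Apob is the longest of these transcripts. The length trend there stood at -0.91, -0.32 and -1.09 in ONX-0914 1, 3 and 4, beside Apob deviations of -1.26, -0.32 and -1.21.

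The ratio of Apoa1 to Apob was 18.99, 23.54 and 16.62 in vehicle 1, 2 and 4, against 77.24, 39.27 and 64.32 in ONX-0914 1, 3 and 4. Every treated ratio was above every vehicle ratio, and the geometric mean was 2.97 times higher (exact permutation test, two-sided, p = 0.1, adjusted p = 0.4). The Apoa1 transcript has 1035 bases and that of Apob 13934, and the part of the length trend in this ratio was not tested.

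**Figure D3:**
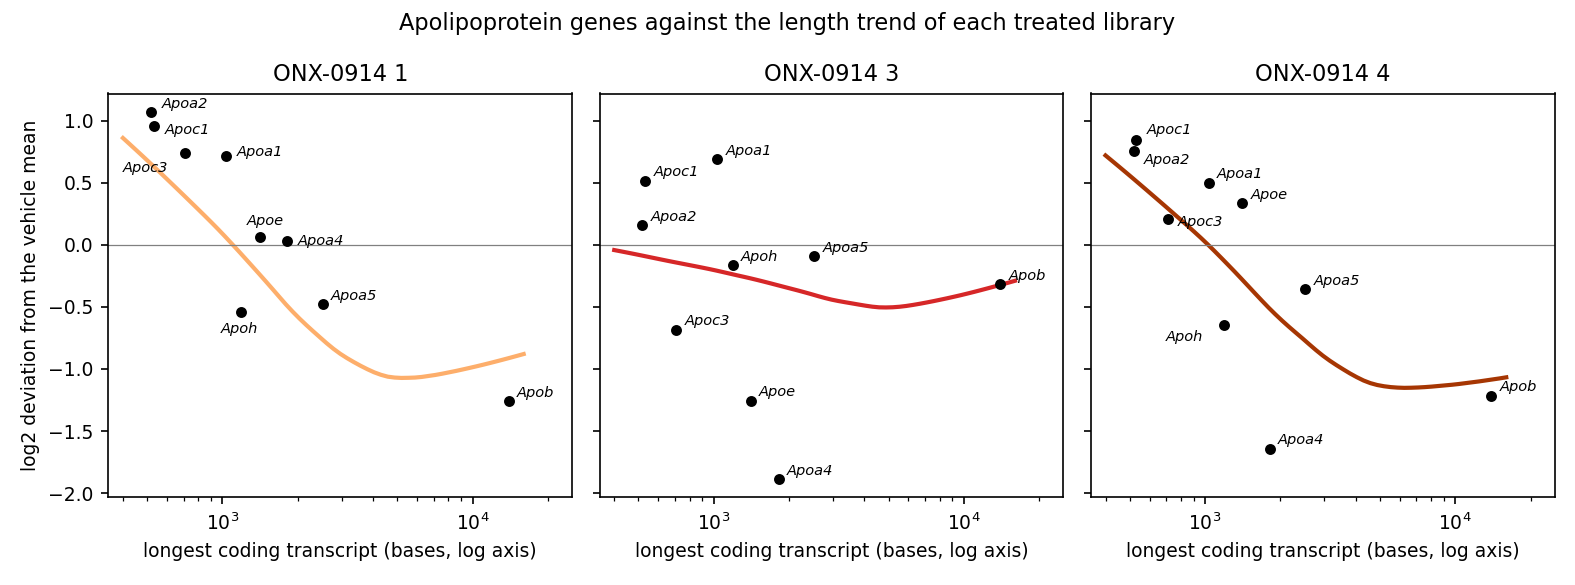
Log2 deviation from the vehicle mean of 9 apolipoprotein genes (points) against the length of the longest coding transcript (log axis) in each treated library, with the smooth trend of all tested genes as a line. In ONX-0914 1 and 4 the line falls with length and Apob lies near its low end, at -1.26 and -1.21, whereas in ONX-0914 3 the line is flatter and Apoa4 lies at -1.89.

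Apoh encodes beta-2-glycoprotein I, a phospholipid-binding plasma protein. Its levels were 2144, 2093 and 1972 FPKM in vehicle 1, 2 and 4, against 1418, 1845 and 1325 in ONX-0914 1, 3 and 4. All treated values were below all vehicle values, with ONX-0914 3 the nearest. Its log2 change of -0.45 (SE 0.20, limma adjusted p = 0.0925, 95% interval -0.90 to 0.003) did not pass. Among fits with 1 library left out, Apoh passed only without ONX-0914 3, at -0.59 (adjusted p = 0.0108). In the other fits of this kind adjusted p ran up to 0.249. By median ratio the sign turned to 0.35 (adjusted p = 0.269), and after length correction it was -0.30 (adjusted p = 0.29).

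Apoc1, in the chromosome 7 cluster, encodes a small exchangeable protein that hinders lipoprotein uptake and is made by liver and macrophages. It was at 9300, 6034 and 12442 FPKM in vehicle 1, 2 and 4, against 17234, 12704 and 15961 in ONX-0914 1, 3 and 4. The treated values were all higher, although vehicle 4 and ONX-0914 3 nearly met. For Apoc1 a log2 change of 0.77 (SE 0.30, limma adjusted p = 0.0563, 95% interval 0.11 to 1.44) did not pass as deposited. It passed by median ratio at 1.58 (adjusted p = 0.0274) and did not after length correction (0.43, adjusted p = 0.243). With Apoa1, Apoh and Apob, Apoc1 was among 4 genes whose groups did not overlap in FPKM, 2 higher and 2 lower. Over all genes tested 4.93% were higher and 53.5% lower without overlap.

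Apoc3 encodes an inhibitor of lipoprotein lipase and of particle uptake. Its levels were 7432, 7463 and 9625 FPKM in vehicle 1, 2 and 4, against 13528, 5054 and 9359 in ONX-0914 1, 3 and 4. The treated libraries spanned both the highest and the lowest value. For Apoc3 the log2 change was 0.09 (limma adjusted p = 0.845) with a 95% interval of -0.69 to 0.86. It was 0.89 by median ratio (adjusted p = 0.194) and -0.09 after length correction (adjusted p = 0.804).

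Apoe encodes the ligand through which remnant particles bind their receptors on liver cells. It was at 67.1, 103 and 32.2 FPKM in vehicle 1, 2 and 4, against 63.2, 24.8 and 77.0 in ONX-0914 1, 3 and 4. The groups overlapped throughout, with the highest value in vehicle 2 and the lowest in ONX-0914 3. For Apoe the log2 change was -0.29 (limma adjusted p = 0.64, 95% interval -1.37 to 0.80), with a sign that turned to 0.50 by median ratio (adjusted p = 0.528) and a value of -0.02 after length correction (adjusted p = 0.979). Apoe is known as a major liver transcript, yet its deposited values rank between 1166 and 2663 of all genes and its neighbour Apoc1 was 58.8 to 512 times higher in the same library. The sources used here do not say why, and a cause was not tested. Macrophages also make apolipoprotein E. The 12 Kupffer cell and macrophage markers summed to 1211 to 1852 FPKM with vehicle and to 629 to 1011 with ONX-0914. Cd5l, the largest part of the vehicle sums, averaged 532 FPKM with vehicle and 113 with ONX-0914. Of these markers 9 fell and 3 did not pass as deposited, beside 43.5% of all genes that were lower. Those 3, Clec4f, Marco and C1qa, averaged 156, 26.4 and 205 FPKM with vehicle and 167, 26.9 and 209 with ONX-0914. By median ratio 5 of the 12 fell and after length correction 7, where 14.2% and 11.6% of all genes were lower. None of the 12 markers was at 0, and their part in the Apoe and Apoc1 values was not tested.

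Apoc2, which encodes the activator of lipoprotein lipase, was listed at 0 in all 6 libraries and could not be tested. In GENCODE M21, 79.5% of its exonic bases also belong to Gm44805 on the same strand, which was listed at 0 as well. Apoc4, which shares 4.69% of its exonic bases with Gm44805, was at 2493 to 5285 FPKM with vehicle and 3891 to 8836 with ONX-0914. A level for Apoc2 cannot be read from these data.

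**Figure D4:**
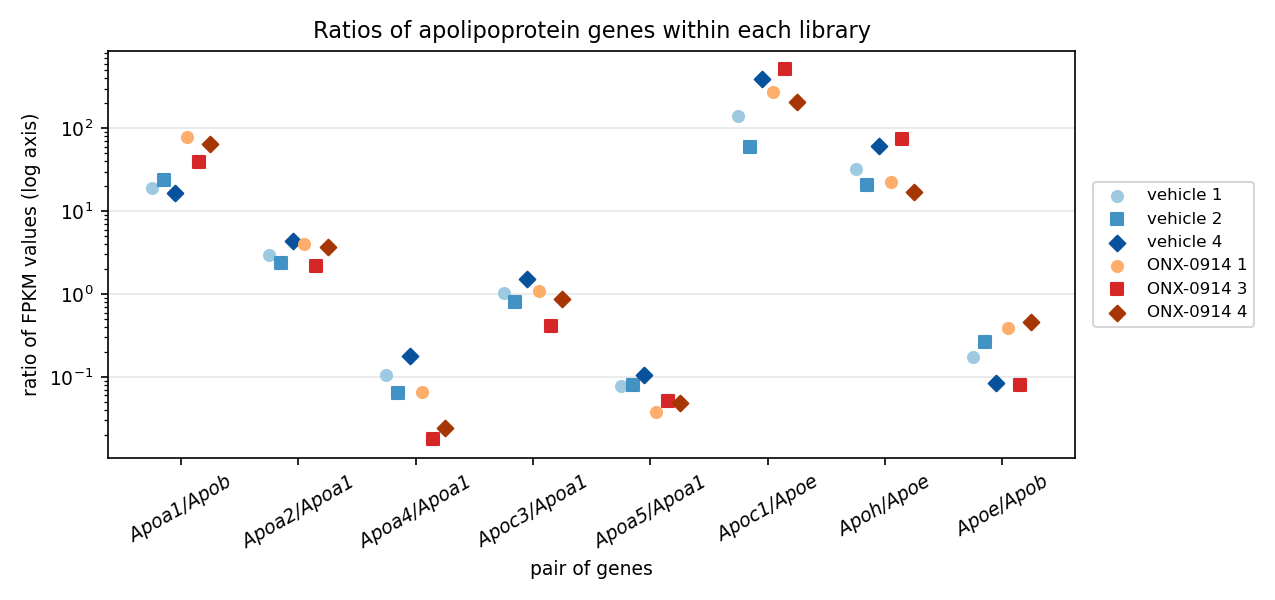
Ratio of FPKM values (log axis) for 8 pairs of apolipoprotein genes within each library. The treated libraries lie apart from vehicle for Apoa1/Apob (39.3 to 77.2 against 16.6 to 23.5) and for Apoa5/Apoa1, and the groups overlap for the other 6 pairs. The ratios are not corrected for the length trend.

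Counted over the 9 tested genes, the calls moved with the scaling. By median ratio 3 were higher, Apoa1, Apoa2 and Apoc1, and none was lower, where 13.8% of all genes were higher and 14.2% lower. The same 3 were higher, at 1.24, 1.26 and 1.38 (limma adjusted p = 0.0185, 0.0497 and 0.0307), and none was lower with factors from the 7943 genes above 1 FPKM in every library. That choice moved the median of all genes to -0.17, with 9.64% higher and 18.7% lower. With equal sums of FPKM none was higher and Apoa4, Apoh and Apob were lower, where 1.59% of all genes were higher and 47.4% lower. With the replicate number as a block Apoa1 and Apoa2 were higher and Apoh and Apob lower, where 5.62% of all genes were higher and 55.6% lower. Vehicle 2 and ONX-0914 3 have no partner of the same number, so the block fit compares only libraries 1 and 4 of each group. After length correction 1 was higher, Apoa1, and none was lower, against 9.43% and 11.6% of all genes. Without ONX-0914 3, Apoa1, Apoa2 and Apoc1 were higher and Apoh and Apob lower, where 6.89% of all genes were higher and 60.6% lower. ONX-0914 3 alone against vehicle gave Apoa4 as the only call, lower, where 2.88% of all genes were higher and 27.9% lower.

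By a rule that took the genes with the lowest and the highest log2 change, Apoa4 and Apoc1 were compared with 4735 genes that averaged at least 10 FPKM. Over the 6 libraries the log2 values of Apoa4 were most like those of Rgs5 (Pearson r = 0.98), Tbca (0.97) and Baiap2 (0.97). Rgs5 is a pericyte gene that is also among the 7 stellate cell and fibroblast markers. It was at 12.8, 8.98 and 20.2 FPKM in vehicle 1, 2 and 4, against 12.4, 4.64 and 4.30 in ONX-0914 1, 3 and 4. Like Apoa4, Rgs5 kept a vehicle-like value in ONX-0914 1. The values of Apoc1 were most like those of Crygn (0.95), Polr3c (0.94) and Mrps10 (0.94). With 6 libraries and so many genes, such coefficients are a description only.

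Of 6 further apolipoprotein genes, 5 were tested, 1 fell and 4 did not pass, where 43.5% of all genes were lower and 2.56% higher. Apom, whose product carries sphingosine-1-phosphate on high density lipoprotein, had a vehicle mean of 514 ± 60.9 FPKM (SD, n = 3) and a treated mean of 186 ± 48.3 (n = 3). All 3 treated libraries (133, 229 and 195 FPKM) were below all vehicle libraries (449, 570 and 522). Its log2 change was -1.49 (SE 0.23, limma adjusted p = 0.00239), -1.45 after length correction (adjusted p = 0.0119) and -0.69 by median ratio, where it did not pass (adjusted p = 0.0638). With median ratio factors from genes above 1 FPKM in every library Apom passed, at -0.89 (adjusted p = 0.0256). Apoc4 (0.87, adjusted p = 0.0756), Apof (0.25), Apon (-0.14) and Clu (-0.31) did not pass as deposited, and Apod was listed at 0. By median ratio Apoc4 and Apof passed as higher and none was lower, beside 13.8% and 14.2% of all genes.

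Among 14 genes of lipoprotein assembly and secretion 8 fell, 1 rose and 5 did not pass, with a median log2 change of -0.76. This and the list counts given next stand beside the 43.5% of all tested genes that were lower as deposited. Mttp, the transfer protein that loads lipid onto apolipoprotein B, was at 103, 82.6 and 81.3 FPKM in vehicle 1, 2 and 4, against 29.9, 45.6 and 25.4 in ONX-0914 1, 3 and 4. All treated values were lower, with a log2 change of -1.41 (SE 0.25, limma adjusted p = 0.00354). It passed by median ratio (-0.63, adjusted p = 0.047) and not after length correction (-0.56, adjusted p = 0.054). Sar1b, a GTPase of the vesicles that carry lipoproteins out of the endoplasmic reticulum, fell by 1.76 (adjusted p = 0.00202), and it passed as lower in all 19 alternatives. Sec23a (-1.53) and Sec24c (-1.46), coat subunits of the same vesicles, fell as deposited and did not pass by median ratio or after length correction. Sec23a passed with median ratio factors from genes above 1 FPKM in every library (-0.99, adjusted p = 0.0496). Ces3a, a liver carboxylesterase, rose by 0.55 (adjusted p = 0.0396), by 1.35 by median ratio and by 1.08 after length correction. With 1 library left out its call held only without ONX-0914 3 (adjusted p up to 0.17 in the others). By median ratio 3 of the 14 rose and 2 fell, Mttp and Sar1b, and after length correction 3 rose and 1 fell, Sar1b.

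Among 12 tested receptors and uptake genes 9 fell and 3 did not pass, with a median of -1.49. Scarb1, the receptor for high density lipoprotein, was at 66.6, 85.7 and 72.4 FPKM in vehicle 1, 2 and 4, against 17.0, 39.0 and 22.2 in ONX-0914 1, 3 and 4. The groups were apart, with a log2 change of -1.56 (SE 0.30, limma adjusted p = 0.00431). Scarb1 also passed by median ratio (-0.78, adjusted p = 0.045) and after length correction (-0.91, adjusted p = 0.0322). Lrp5, a co-receptor of Wnt signalling, fell by 1.59 as deposited, passed by median ratio (-0.92, adjusted p = 0.0372) and did not pass after length correction (-0.68, adjusted p = 0.0689). By median ratio 6 of the 12 fell, and after length correction 5 did.

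Of 9 lipases and their regulators 4 fell and 5 did not pass, with a median of -0.57. Gpihbp1, which anchors lipoprotein lipase on capillary endothelium, had a vehicle mean of 61.5 ± 9.15 FPKM (SD, n = 3) and a treated mean of 8.86 ± 3.70 (n = 3). Its log2 change was -2.72 (limma adjusted p = 0.00114). Lpl, lipoprotein lipase itself, fell by 1.76. Both passed as lower by median ratio and after length correction. The 7 endothelial markers all fell too, and summed to 129 to 134 FPKM with vehicle and 18.2 to 31.6 with ONX-0914. Their part in the Gpihbp1 value was not tested. Gpld1 fell by 0.70 as deposited and was at 0.09 by median ratio and 0.20 after length correction. With 1 library left out its call held only without ONX-0914 3 or 4 (adjusted p up to 0.112 in the others).

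Of 8 genes of high density lipoprotein formation and remodelling 4 fell and 4 did not pass, with a median of -0.83. Abca1, which moves cholesterol onto apolipoprotein A-I, was at 9.32, 9.82 and 9.38 FPKM in vehicle 1, 2 and 4, against 1.80, 6.45 and 0.99 in ONX-0914 1, 3 and 4. Its log2 change was -1.60 (SE 0.44, limma adjusted p = 0.0173), that of Pltp, the phospholipid transfer protein, was -1.25, and that of Pon3, a paraoxonase, was -1.09. The Abca1 call, with 1 library left out, held only without ONX-0914 3 (-2.15), with adjusted p from 0.0518 to 0.0613 in the other 5 fits, and ONX-0914 3 alone gave -0.50. By median ratio only Abcg1 of the 8 fell, and after length correction Pon3 and Abcg1 did. Of the 12 Kupffer cell and macrophage markers 9 fell as deposited, and the 7 endothelial markers all fell, also in both other settings. The part of these markers in this list was not tested. Lcat, which esterifies cholesterol on high density lipoprotein, did not pass (-0.35, adjusted p = 0.206), and was at 0.45 by median ratio. None of these 8 genes rose as deposited, by median ratio or after length correction.

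Of 21 tested regulators of apolipoprotein genes 12 fell and 9 did not pass, with a median of -0.96. Hnf4a, a nuclear receptor that drives many of these genes, was at 58.5, 51.7 and 68.6 FPKM in vehicle 1, 2 and 4, against 6.26, 40.7 and 5.94 in ONX-0914 1, 3 and 4. It fell by 2.23 (SE 0.59, limma adjusted p = 0.0154), less in ONX-0914 3, and did not pass by median ratio (-1.48, adjusted p = 0.065) or after length correction (-1.35, adjusted p = 0.0824). The call was lost without vehicle 4, ONX-0914 1 or ONX-0914 4 (adjusted p = 0.0507, 0.0582 and 0.0677), and ONX-0914 3 alone gave -0.53 while the fit without it gave -3.08. Rxra, the partner of several nuclear receptors, had a log2 change of -3.13 (limma adjusted p = 0.0018), and it passed in both settings (-2.43 and -2.23), as did Nr2f2 (-1.65 as deposited). Cebpa (-1.51) and Creb3l3 (-0.83), an activator of Apoa4 and Apoc2, passed as deposited and in neither of these settings. Leaving out 1 library, the Creb3l3 call held only without ONX-0914 3 (adjusted p up to 0.118 in the others), and it was lost without the filter on low values (adjusted p = 0.0553). After length correction 2 of the 21 fell and none rose.

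**Figure D5:**
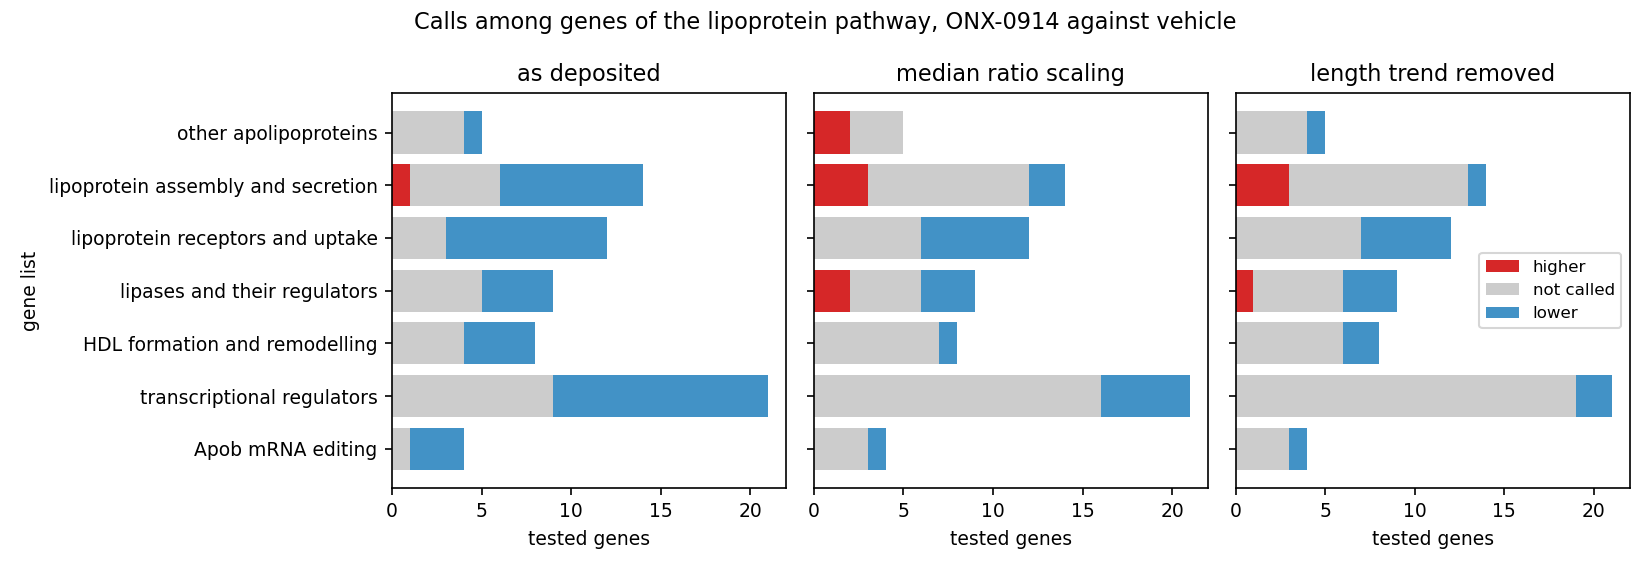
Number of tested genes called higher (red), lower (blue) or not called (grey) with ONX-0914 in 7 lists of lipoprotein genes, as deposited, by median ratio and after length correction (length trend removed). Falls outnumber rises as deposited in every list, as they do over all tested genes. Among the 21 tested regulators 12 fell as deposited, 5 by median ratio and 2 after length correction. Over all tested genes 43.5%, 14.2% and 11.6% were lower in these settings, and 2.56%, 13.8% and 9.43% were higher.

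Apob mRNA is edited in mouse liver by the deaminase APOBEC1, which turns a glutamine codon into a stop so that a shorter apolipoprotein B is made. The site lies in the coding sequence of the gene that passed as lower, and is shown because its editing genes moved. In the transcript Apob-202 of GENCODE M21 the codon CAA is number 2179 from the start of the longest open reading frame. In the sequence of 27 bases around it, capitals mark the edited C and the start of the mooring sequence on which the editing complex sits.
Apob editing site: acgcgataCaattTGATCAGtatatta

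Of the 4 editing genes 3 fell and 1 did not pass. A1cf, the RNA-binding cofactor of APOBEC1, was at 20.3, 27.1 and 27.1 FPKM in vehicle 1, 2 and 4, against 2.52, 5.10 and 2.66 in ONX-0914 1, 3 and 4. Every treated library was far below vehicle, ONX-0914 3 included, with a log2 change of -2.58 (SE 0.29, limma adjusted p = 0.00122). A1cf passed by median ratio (-1.89, adjusted p = 0.00508) and after length correction (-1.78, adjusted p = 0.00399). Rbm47 (-1.52) and Syncrip (-1.01), further RNA-binding partners, passed as deposited and in neither of these settings. Leaving out 1 library, the Syncrip call held only without ONX-0914 3 and that of Rbm47 without ONX-0914 3 or vehicle 4, with adjusted p up to 0.119 and 0.0668 in the others. Apobec1 itself was at 26.8, 24.3 and 22.9 FPKM in vehicle 1, 2 and 4, against 18.6, 26.1 and 6.36 in ONX-0914 1, 3 and 4, and did not pass (-0.70, adjusted p = 0.194). The matrix holds levels per gene and carries no measure of editing.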

How the data were processed

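Liver RNA of 6 libraries was analysed. The authors deposited 1 matrix of FPKM per gene and library. The annotation behind it and the strand setting of the counting are not given in the sources used here. Builds GRCm38 and mm10, HISAT2 2.0.1, featureCounts 1.6.0, cutadapt 1.11, FastQC 0.11.5 and edgeR are named, without role or order, per the submitters' processing notes.

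Each column carries the title of its sample. Genes above 1 FPKM in at least 3 libraries were fitted on log2(FPKM + 1) with limma 3.58.1 (variance trend, R 4.3.3). Values near 0 rest on few reads, and log2(FPKM + 1) understates changes of low genes. Median ratio factors used 10597 tested genes above 0 in every library, or, as an alternative, the 7943 above 1. Length correction subtracted a lowess curve (span 0.5) of deviations from the vehicle mean over the longest coding transcript, with lengths from GENCODE M21 for 98.2% of tested genes. Fit and length correction were tested on simulated data.

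The genes, lists and tests were chosen with earlier results of these data known. All 10 genes are named. From each list up to 4 genes were named that passed, averaged at least 5 FPKM and did not overlap between groups, by size of change, and also Mttp, Hnf4a, Creb3l3, Apobec1, Lcat, Pltp and Alb. Some genes this rule takes are not reported here. Ces3a, Abcg1, Apoc4, Apof, Apon, Clu, Apod, Fgb, Cps1, Ass1, Ttr and Cd5l were named after their values were seen. So were Clec4f, Marco, C1qa, Serpinc1, Ahsg and Trf. The 7 stellate cell and fibroblast markers summed to 297 to 371 FPKM with vehicle and to 74.0 to 156 with ONX-0914, and 5 adipocyte markers to at most 3.76.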

Additional observations from a re-analysis of the deposited data

How the results depend on the processing

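Of 19 alternatives, Apoa1, Apoa2 and Apoc1 were higher and Apob was lower in all, and the calls moved. As deposited 1 of 9 genes was called higher and 1 lower. The number higher was 0 without a filter, with equal sums of FPKM, quantile normalized and with ONX-0914 3 alone, 2 in a robust fit and 3 by median ratio. The number lower was 0 by median ratio, quantile normalized and after length correction, and 3 with equal sums. With 1 library left out 0 to 3 were higher and 0 to 2 lower. All tested genes were called higher 275 and lower 4673 times, against 1481 and 1528 by median ratio, 1118 and 1334 quantile normalized, 1013 and 1246 after length correction, 171 and 5095 with equal sums and 2992 lower with ONX-0914 3 alone. With 1 library left out 92 to 740 were higher and 2590 to 6514 lower.

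Signs turned by median ratio for Apoa5 (0.49), Apoe (0.50), Apoh (0.35), Gpld1 (0.0911), Apobec1 (0.0511), Lcat (0.45), Apon (0.66), Clu (0.49), Ass1 (0.23) and Alb (0.0432). After length correction they turned for Apoa5 (0.34), Apoc3 (-0.0919), Apon (0.28), Clu (0.13) and Gpld1 (0.20). Apoc3 was -0.0702 with equal sums, -0.42 quantile normalized, -0.68 with ONX-0914 3 alone and -0.24 to 0.47 with 1 library left out. Apoe was 0.0698 quantile normalized and -0.73 to 0.20 with 1 library left out. With ONX-0914 3 alone Apobec1 was 0.0801, Clu 0.15 and Lcat 0.0695. Clu was -0.54 to 0.0527 with 1 library left out. The cause of these turns was not tested.

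A median ratio over the 7943 genes above 1 in every library, chosen after the data were seen, called 3 apolipoprotein genes higher and 0 lower, and 1036 and 2007 of all genes. Apoa5 was then 0.29, Apoe 0.31, Apoh 0.15, Lcat 0.25, Apon 0.46, Clu 0.29 and Ass1 0.0295. Combined settings, also chosen then, left out ONX-0914 3 as well. By median ratio 6 apolipoprotein genes were then higher and 0 lower, and 2829 and 2806 of all genes. Apoa4 was 0.16, Apoa5 0.55, Apoe 1.15, Apoh 0.37, Gpld1 0.21, Lcat 0.40, Apon 0.85, Clu 0.42, Ass1 0.46 and Alb 0.000656. After length correction 0 were higher and 1 lower, Apoh, with 1985 and 2142 of all genes, Apoa5 at 0.35, Apoe at 0.46, Apon at 0.35 and Gpld1 at 0.36.

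The shared numbers 1 and 4 do not pair the libraries by any label, and deviations from the group means correlated at 0.001 and 0.13. A fit with the replicate number as a block called 2 apolipoprotein genes higher, Apoa2 and Apoa1, and 2 lower, Apoh and Apob. Of all genes 604 were then higher and 5973 lower, and Apoe was at 0.57. That fit rests only on libraries 1 and 4 of each group, since vehicle 2 and ONX-0914 3 are alone in their blocks. It is thus no check separate from the fits without ONX-0914 3. Read totals are unknown, so depth sets no stated limit.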
